A study of Mus musculus with 3 samples.

Results

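High-tag limb-only peaks at a distance from genes were chosen from the list of Twist1 binding peaks deposited for mouse E10.5 forelimb buds. A peak was taken when it lay on an assembled chromosome, when under 5% of its own length was overlapped by a peak of either other tissue, when the nearer of its 2 listed genes was more than 5000 and at most 50000 bp away, and when it held at least 16 tags, the sequenced reads that the peak caller counted in it. Of 48965 limb peaks, 47664 lay on assembled chromosomes, 43557 of those were limb-only, 15526 of those were 5 to 50 kb from a gene, and 1970 of those had at least 16 tags. The rule thus kept 12.7% of the limb-only distal peaks, and this share is fixed by the tag threshold. The members were selected on their tags, so tags, fold, score and length are given as descriptions only.

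The study compared Twist1 occupancy between 3 mouse samples by chromatin immunoprecipitation and sequencing (ChIP-seq), each with 1 library and no replicate. The limb sample was forelimb bud tissue of wild-type FVB/N embryos at E10.5 (embryonic day), and the ECC sample was atrioventricular canal endocardial cushion tissue of FVB/N embryos at E12.5. Tissue of several litters was pooled for each. The PNST sample was a cultured mouse peripheral nerve sheath tumor cell line, labelled with the strain FVB/N. The same Sigma antibody against Twist1 was used for all samples, and the labels name no deletion, transgene or treatment. Expression was not measured in these libraries, so the tissue labels could not be checked against markers.

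Twist1 belongs to the basic helix-loop-helix (bHLH) family of transcription factors and binds E-boxes, written CANNTG, as a dimer with itself or with partners such as the E proteins and Hand2. In the limb bud it is made in the mesenchyme, where it takes part in the signaling between mesenchyme and ectoderm that drives outgrowth and patterning, and its loss disturbs limb formation. A pair of E-boxes separated by 5 bases is an arrangement that has been described for Twist1 dimers.

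The limb library held 23086861 tags, of which 14893391 remained after duplicates were removed, against 3149934 in ECC and 11823220 in PNST. The limb library was thus 4.73 times as deep as the ECC library. Scaled to the ECC depth, 16 limb tags correspond to 3.38 tags, which is under the 5 tags of the smallest ECC peak. A limb peak needed 23.6 tags to scale to that minimum, and 520 of the 1970 members (26.4%) had this many. At the PNST depth 16 limb tags correspond to 12.7 tags, above the 7 tags of the smallest PNST peak. Every member was thus past that minimum in tags, but whether it would pass the p-value threshold at that depth was not tested. For 1450 members, the absence of an ECC peak therefore could not be told apart from the smaller depth of the ECC library. Tags alone do not decide a call, which rests on the p-value. Whether the other 520 members would pass that threshold at the ECC depth was not tested.

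The sequences below are mm9 plus-strand windows of 101 bp centred on peak summits, with E-boxes in capitals. Members in sequence that is mostly present at 1 place in the genome are shown first, because so few members lie in such sequence. These are the 5 with the highest fold among such members with an E-box in the window.
Capzb, chr4:138762746-138762846: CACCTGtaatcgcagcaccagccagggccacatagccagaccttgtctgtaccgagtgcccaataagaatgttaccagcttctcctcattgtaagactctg
Csf2ra, chr19:61339875-61339975: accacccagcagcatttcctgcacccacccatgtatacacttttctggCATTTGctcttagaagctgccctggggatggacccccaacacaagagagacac
Polr3k, chr2:181652136-181652236: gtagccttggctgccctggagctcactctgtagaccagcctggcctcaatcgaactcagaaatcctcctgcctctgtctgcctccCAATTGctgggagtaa
Nsfl1c, chr2:151311050-151311150: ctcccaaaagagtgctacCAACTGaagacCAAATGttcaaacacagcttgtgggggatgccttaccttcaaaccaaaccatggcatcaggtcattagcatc
Pisd, chr5:33068863-33068963: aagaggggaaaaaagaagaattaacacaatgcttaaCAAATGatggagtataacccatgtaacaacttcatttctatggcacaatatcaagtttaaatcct

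The next windows come from groups of peaks joined by shared summit words of 32 bp, the unit in which repeated sequence was counted here. Peaks were joined in chains, so peaks of the same group need not share a word with each other. They are shown because most peaks of groups 8, 10, 15 and 9, and many of group 4, were members. Each is the member window that has most words in common with the other members of its group, and it was chosen after the values of the group were seen.
Group 8, B3gat1, chr9:26513958-26514058: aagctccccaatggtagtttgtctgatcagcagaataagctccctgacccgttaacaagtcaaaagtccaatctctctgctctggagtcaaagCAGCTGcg
Group 10, 1700024G13Rik, chr14:33211311-33211411: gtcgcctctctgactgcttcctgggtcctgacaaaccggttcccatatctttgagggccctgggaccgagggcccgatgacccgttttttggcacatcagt
Group 15, Grm5, chr7:94764929-94765029: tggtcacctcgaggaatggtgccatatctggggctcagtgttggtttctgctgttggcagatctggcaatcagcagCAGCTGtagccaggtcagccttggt
Group 9, Chit1, chr1:136023544-136023644: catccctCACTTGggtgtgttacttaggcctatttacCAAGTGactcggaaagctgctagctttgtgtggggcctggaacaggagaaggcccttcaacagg
Group 4, Gm628, chr15:73704139-73704239: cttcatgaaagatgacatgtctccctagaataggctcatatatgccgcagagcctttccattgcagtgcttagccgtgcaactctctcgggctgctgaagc

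For the largest 3 groups, in which members were a smaller share, these windows were chosen in the same way. They need not be typical of their groups. The summit words of the group 1 and group 2 windows had 4269 and 17462 copies, against group medians of 563.75 and 1400.5.
Group 1, Sorcs3, chr19:48488006-48488106: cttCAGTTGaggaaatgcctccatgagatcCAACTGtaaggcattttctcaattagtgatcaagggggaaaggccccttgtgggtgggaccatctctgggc
Group 2, Ctnna3, chr10:63296766-63296866: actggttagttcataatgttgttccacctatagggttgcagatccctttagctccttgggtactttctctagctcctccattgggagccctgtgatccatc
Group 3, Ppp1r3a, chr6:14744612-14744712: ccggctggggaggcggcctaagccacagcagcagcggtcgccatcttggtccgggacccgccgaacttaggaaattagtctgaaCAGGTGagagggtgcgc

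The members with a pair of E-boxes 5 bases apart that had the most tags in 2 groups are shown because that arrangement was more frequent among members.
AB124611, chr9:21323944-21324044: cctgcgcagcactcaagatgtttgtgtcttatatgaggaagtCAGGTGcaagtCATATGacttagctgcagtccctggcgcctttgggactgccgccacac
Gm9758, chr5:14900666-14900766: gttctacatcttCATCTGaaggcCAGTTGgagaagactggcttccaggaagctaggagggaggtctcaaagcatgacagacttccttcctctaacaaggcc

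The member with the most tags of all, the member beside Tbx5, and the Tcf7l2 member with E-boxes are shown because they recur in the accounts of tags and of gene lists.
Rhou, chr8:126146560-126146660: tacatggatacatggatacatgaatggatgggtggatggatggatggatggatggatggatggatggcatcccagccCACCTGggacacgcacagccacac
Tbx5, chr5:120344848-120344948: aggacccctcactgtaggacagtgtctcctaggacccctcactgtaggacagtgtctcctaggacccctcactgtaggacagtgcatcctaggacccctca
Tcf7l2, chr19:55845402-55845502: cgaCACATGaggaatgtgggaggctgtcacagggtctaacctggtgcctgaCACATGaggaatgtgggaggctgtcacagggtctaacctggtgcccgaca

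The members' tags were concentrated just above the threshold. The lowest count was 16, the median 19, the upper quartile 24 and the highest 204, and 983 members (49.9%) held at least 20 tags, 216 held at least 30, 54 held at least 50 and 11 held at least 100. The fold over the local background of the same library had a median of 9.47 in members, with quartiles of 7.14 and 14.6 and a range of 2.73 to 58.1. In the 13556 limb-only distal peaks with fewer tags the median fold was higher, at 14.7. Members were also longer, with a median of 261 bp against 141 bp. Per 100 bp of peak, members held a median of 7.60 tags and the peaks below the threshold 6.50 tags. Fold and length come from the same call as the tags that split the sets, so these differences are descriptions and their cause was not tested. The lowest fold among the peaks with fewer tags was 5.66. The plot of tags against fold shows the values.

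**Figure D1:**
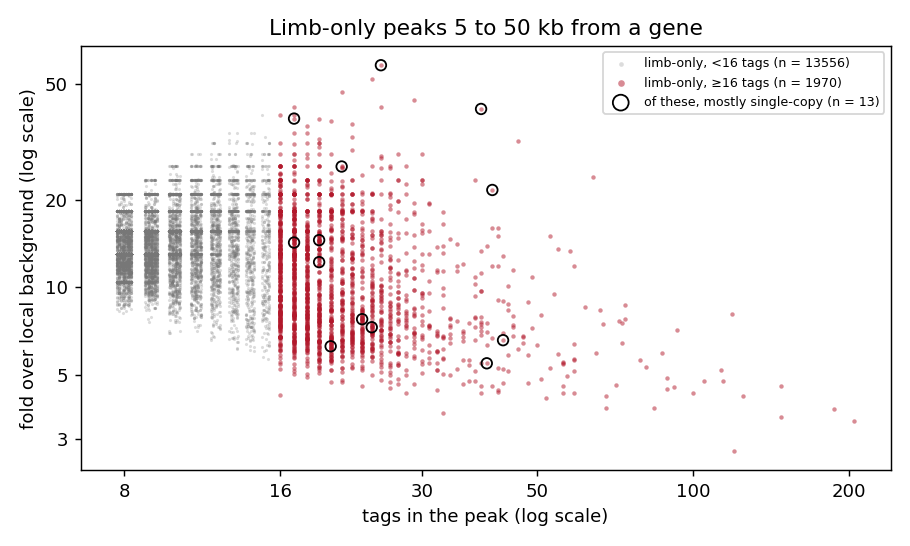
Tags per peak (x axis, log scale) against fold over the local background (y axis, log scale) for the 15526 limb-only distal peaks of the 1 limb library. Red points are the 1970 members, grey points the 13556 peaks with fewer than 16 tags (spread sideways within each whole tag number), and black rings the 13 members in mostly single-copy sequence. Points above 100 tags lie at folds of 8.07 or lower.

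The values just outside and just inside the threshold were these. The 327 limb-only distal peaks with 15 tags had a median fold of 14.5, a median length of 198 bp, an E-box within 50 bp of the summit in 37.3% and a summit word shared with a PNST peak in 54.4%. The 312 members with exactly 16 tags had a median fold of 11.97, a median length of 216 bp, an E-box in 39.4% and such a PNST word in 47.4%.

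Nearly all members lay in sequence that the mouse genome holds many times. Only 13 of 1970 members (0.66%, 95% Wilson interval 0.386 to 1.13%) had at least 50% of their 32-bp words at 1 place in the genome. In 1549 members (78.6%) no word of the peak was unique. The median word at the summit occurred 424.5 times in the median member, at least 10 times in 1724 members (87.5%), at least 100 times in 1335 (67.8%) and at least 1000 times in 517 (26.2%). The reads were 50 bp long and copies at that length were not counted, so whether they could be assigned to 1 copy was not tested. The files do not state how reads with several matches were placed. All intervals of shares cover counting error over the peaks of 1 library only.

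Multi-copy sequence was not particular to the high-tag peaks. Among limb-only distal peaks with under 16 tags, 150 of 13556 (1.11%) were mostly single-copy, and the difference from members was -0.45 percentage points, with a Newcombe 95% interval of -0.78 to 0.047. Very frequent words were less common in members. Summit words with at least 1000 copies were found in 26.2% of members and 39.2% of the peaks with fewer tags, a difference of -12.9 points (interval -15.0 to -10.8). The 612 distal limb peaks with at least 16 tags that overlapped an ECC or PNST peak differed more. Of these, 56 (9.15%) were mostly single-copy, and the members' share minus theirs was -8.49 points (interval -11.1 to -6.40), while their median summit word had 35 copies.

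**Figure D2:**
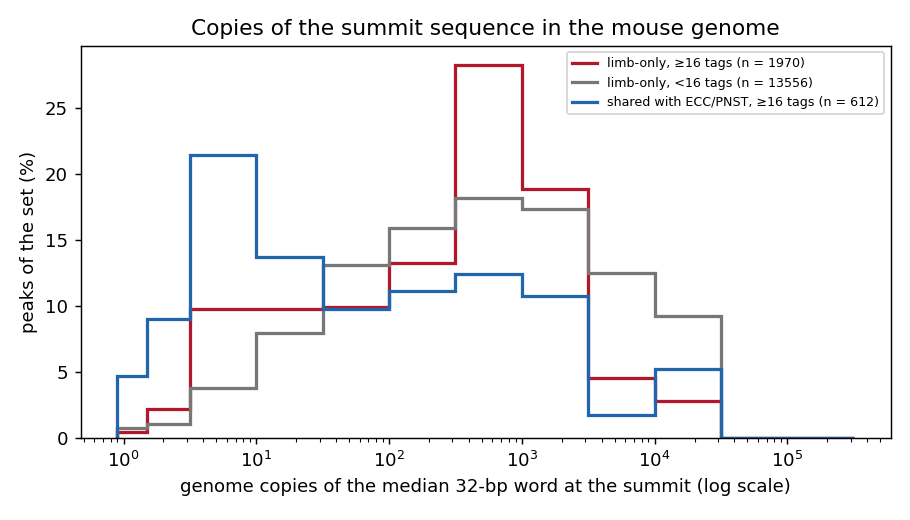
Percent of peaks (y axis) by the number of genome copies of the median 32-bp word in the 101-bp summit window (x axis, log scale) for members, limb-only distal peaks with fewer tags, and high-tag distal limb peaks shared with another tissue. Members have a median of 424.5 copies, and the shared peaks have a median of 35.

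When all 15526 limb-only distal peaks were grouped by shared summit words, without use of their tags, a few groups held most of the peaks. Of 1237 groups, 15 held at least 50 peaks each, and these contained 1429 members (72.5%), while 207 members shared no word with any other peak. Groups are numbered from the largest. No repeat annotation was used, so the groups are not named as repeat families.

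Members were unevenly spread over these groups. In group 8, 184 of 225 peaks were members (81.8%, Wilson interval 76.2 to 86.3%), against 12.7% of all limb-only distal peaks. In group 10 members were 81 of 116 peaks (69.8%, 60.9 to 77.4%), in group 15 they were 36 of 53 (67.9%, 54.5 to 78.9%), in group 9 they were 78 of 120 (65.0%, 56.1 to 72.9%), and in group 17 they were 25 of 39 (64.1%, 48.4 to 77.3%). Among the 20 groups with at least 30 peaks, these 5 were the ones in which at least 50% of the peaks were members, and together they held 404 of 553 peaks (73.1%). They were singled out after their shares were seen. They held 20.5% of all members, but 3.32% of the members with a p-value of 1e-10 or smaller and 0.55% of those with a fold of at least 20. Outside them, members were 1566 of 14973 peaks (10.46%).

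The 5 groups were dispersed rather than local. Their peaks lay on 17 to 21 chromosomes each, and the 184 members of group 8 had 174 different nearest genes. Their summit words recurred in the genome, with group medians of 459 to 632.5 copies. The median fold of their peaks was between 7.18 in group 10 and 7.84 in group 9, and their median length was 231 to 269 bp. Over all members these medians were 9.47 and 261 bp. The groups were picked by their share of high-tag peaks, and fold and length come from the same call, so these values are descriptions. The most frequent word among members of group 8 was present in 35 limb-only distal peaks, and 30 of these were members.

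Group 4 gave the most members of any group, 332 of 817 peaks (40.6%, 37.3 to 44.0%), or 16.9% of all members. The largest 3 groups gave fewer per peak. Members were 307 of 4770 peaks in group 1 (6.44%), 117 of 3862 in group 2 (3.03%) and 242 of 2056 in group 3 (11.8%). In 6 of the 20 groups with at least 30 peaks, under 5% were members.

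**Figure D3:**
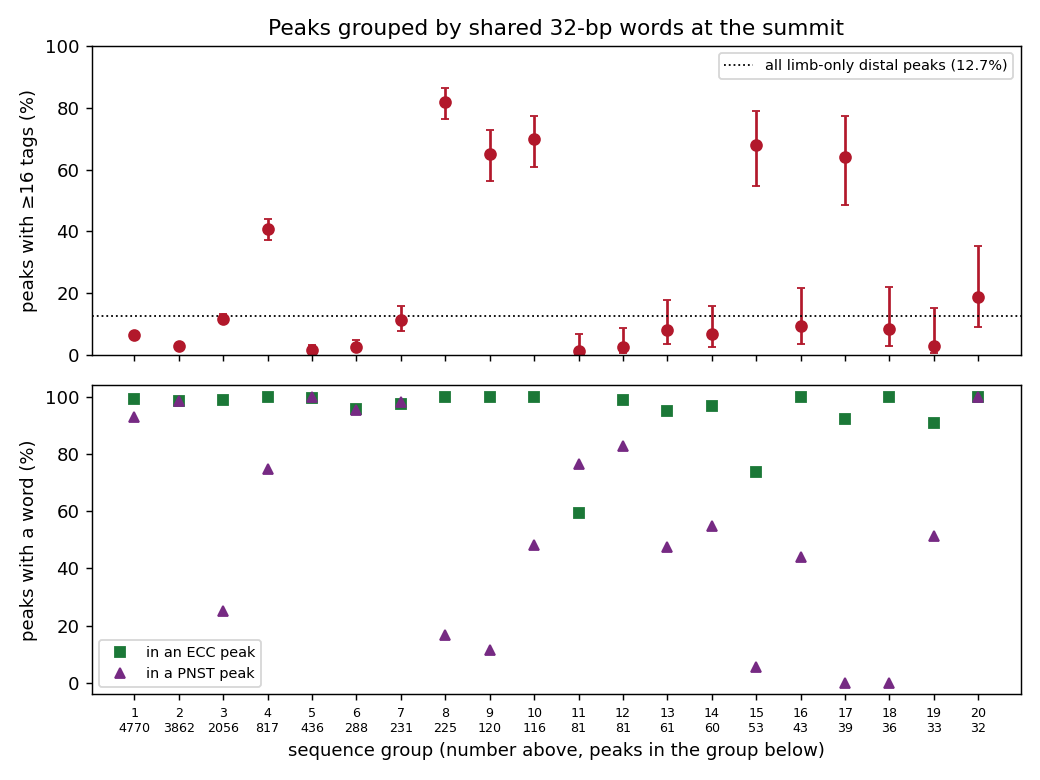
Limb-only distal peaks in the 20 sequence groups with at least 30 peaks (x axis, group number with its peak count below it). The upper panel gives the percent of peaks with at least 16 tags with Wilson 95% intervals and a dotted line at the share over all limb-only distal peaks, 12.7%; the lower panel gives the percent of peaks whose summit window shares a 32-bp word with any ECC peak (squares) or PNST peak (triangles). Groups 8, 9, 10, 15 and 17 stand above 60% in the upper panel, and in 4 of these 5 under 20% of peaks share a word with a PNST peak.

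The same sequences recurred in the ECC list at other places. A summit window of a member shared at least 1 word of 32 bp with an ECC peak in 1603 of 1970 cases (81.4%, 79.6 to 83.03%), although no member overlapped an ECC peak by 5% or more. In windows 1 kb to either side of the summits the share was 33.5% of 3940, so the summit share was 47.9 points higher (interval 45.5 to 50.1). With PNST peaks, words were shared by 843 members (42.8%, 40.6 to 45.0%) at the summit and by 35.3% of the side windows, a difference of 7.54 points (interval 4.90 to 10.2).

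Of the sequence shares compared here, word sharing with PNST differed most between members and the peaks with fewer tags. Among the latter, 10197 of 13556 summit windows (75.2%) shared a word with a PNST peak, and the members' share minus theirs was -32.4 points (interval -34.7 to -30.1). Sharing with ECC was also lower, by a smaller amount, at 81.4% against 91.4% (difference -9.999, interval -11.8 to -8.27). Outside the 5 groups rich in members the PNST difference was -26.2 points, 49.5% against 75.7% (interval -28.8 to -23.7). Within these 5 groups 68 of 404 members (16.8%) and 43 of 149 peaks with fewer tags (28.9%) shared a word with PNST. The gap differed by group. In group 1, 80.1% of members and 93.8% of peaks with fewer tags shared such a word, and in group 2, 95.7% and 98.6%. In group 3 the shares were 13.2% and 26.9%, in group 4 they were 80.1% and 70.9%, and in group 10 they were 38.3% and 71.4%. How far the uneven spread of members over the groups made the difference was not tested.

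The groups differed in where else their words were found. Words of group 8 were in the summit windows of 213 of the 10653 ECC peaks with sequence and in 5 of the 7259 such PNST peaks. For group 9 these numbers were 93 and 1, for group 10 they were 174 and 3, for group 15 they were 93 and 1, and for group 17 they were 19 and 0. Group 4 words were in 1139 ECC and 37 PNST windows, and group 3 words in 1777 and 25. Group 1 words were in 2334 and 725. In the 6 groups with under 5% members the numbers went both ways. They were 1001 ECC and 1309 PNST windows for group 2, 53 and 664 for group 5, 8 and 24 for group 11, 69 and 55 for group 6, 44 and 4 for group 12, and 14 and 3 for group 19. The words of each of the 5 groups rich in members were in more ECC than PNST windows, and so were those of 3 of these 6 groups. The same held for every remaining group with at least 30 peaks, so it was not particular to the 5. A word of any limb-only distal peak was in 8485 of the ECC windows (79.6%) and in 3598 of the PNST windows (49.6%). Each list holds only peaks that passed its own threshold, so a count of 0 does not show that a sequence was unbound.

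E-boxes were no more frequent at the members' summits than around them. An E-box within 50 bp of the summit was found in 771 of 1970 members (39.1%, 37.0 to 41.3%) and in 42.2% of the windows 1 kb to either side, a difference of -3.07 points (interval -5.71 to -0.41). The side windows were not matched in base content, with a median GC of 44.6% against 51.5% at the summits. The study itself reported enriched E-box motifs over all its limb peaks by motif search, a different set and measure. Limb-only distal peaks with fewer tags had an E-box in 40.5% of summit windows, and members minus these was -1.35 points (interval -3.63 to 0.98). The shared high-tag peaks had an E-box in 28.9%, and members minus these was 10.2 points (interval 5.93 to 14.3). Over the whole peak an E-box was present in 70.2% of members and 54.7% of the peaks with fewer tags, and the median lengths of these sets were 261 and 141 bp. Across 1 kb around the summit, E-box density in members ranged from 4.91 to 6.65 per kb in bins of 30 bp.

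**Figure D4:**
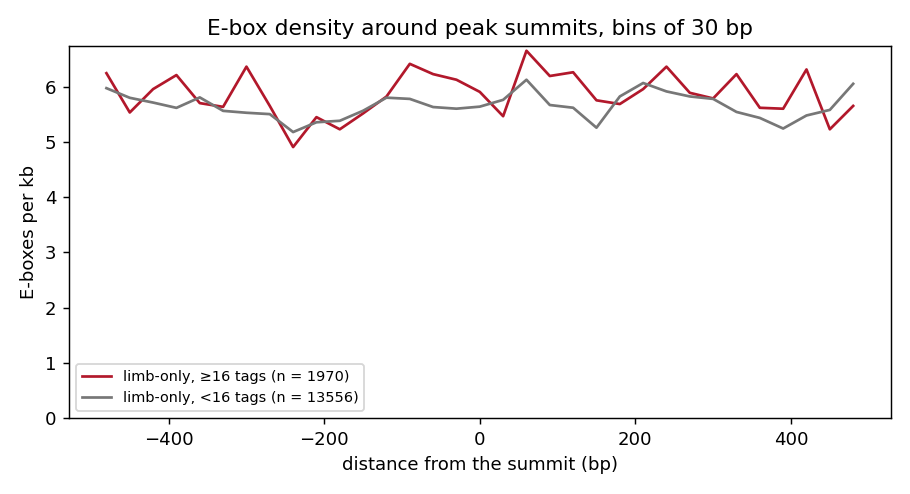
E-boxes per kb (y axis) by distance from the peak summit (x axis, bins of 30 bp) in the 1970 members and in the 13556 limb-only distal peaks with fewer tags. Neither line has a peak at the summit, where members have 5.91 E-boxes per kb within a range of 4.91 to 6.65 over all bins.

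E-box content depended on the sequence group. All 25 members of group 17 had an E-box in the window, and 65 of 78 members of group 9 (83.3%) did. In groups 8, 10 and 4 the shares were 24.5%, 27.2% and 29.5%. The most frequent forms among members were CACCTG (with its reverse CAGGTG), in 238 windows (12.1%), of which 122 belonged to group 3, and CAGCTG, in 139 windows (7.06%). CACCTG was in 10.3% of windows of peaks with fewer tags, a difference of 1.74 points (interval 0.28 to 3.33). Outside the 5 groups rich in members the difference was 2.65 points (interval 0.99 to 4.48). Those groups do not include group 3, and the difference without group 3 was not computed. CAGCTG was in 4.09% of windows of peaks with fewer tags, and the members' share was higher by 2.97 points (interval 1.86 to 4.23). Of the 139 members with CAGCTG, 63 were in the 5 groups rich in members, and outside these groups the difference was 0.87 points (interval -0.15 to 2.09). CAGATG (or CATCTG) and CATATG were rarer in members, at 5.74% against 8.75% (difference -3.01, interval -4.07 to -1.80) and 3.35% against 5.97% (difference -2.62, interval -3.44 to -1.65).

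The pair of E-boxes 5 bases apart, CANNTG followed by 5 bases of any kind and CANNTG again, was in 16 members (0.81%, 0.50 to 1.32%) and in 33 of 13556 peaks with fewer tags (0.24%), a difference of 0.57 points (interval 0.24 to 1.08). In the windows to either side of the members it was in 7 of 3940 (0.18%). These 16 windows were not independent sequences. Of them, 12 were in group 1, and 10 carried the same 17 bases, CAGGTGCAAGTCATATG on either strand. This form was in 35 limb-only distal peaks, of which 10 were members (28.6%), and its peaks had a median of 1330 genome copies of the summit word. Another 3 members, beside Gm9758, Speer4d and Speer5-ps1, carried CAACTGGCCTTCAGATG or its reverse, with 55, 55 and 19 tags and a summit word of 4 or 5 copies. The remaining form outside group 1 was the window beside Nsfl1c, printed above, with 19 tags and a fold of 14.5.

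Other motifs were searched on both strands in the same windows. AGGTCA, the core site of nuclear receptors such as RXR, was in 118 members (5.99%), in 5.21% of the peaks with fewer tags and in 4.80% of the side windows, and the interval of each difference included 0. TGANTCA takes in the AP-1 site but allows any middle base. It was in 37 members (1.88%), 1.10 points above the peaks with fewer tags (interval 0.56 to 1.81). In the side windows it was in 3.25%, a difference of -1.37 points (interval -2.16 to -0.50). Group 9 held 17 of these 37 members, and outside the 5 groups rich in members the difference from peaks with fewer tags was 0.22 points (interval -0.18 to 0.83). TAATTA, a homeodomain site, was in 10 members (0.51%) and in 2.13% of the side windows. An exact tandem repeat of at least 20 bp with a unit of up to 6 bases was in 69 members (3.50%), in 5.69% of the peaks with fewer tags and in 21.2% of the shared high-tag peaks. The unit was AGAGGC in 33 of the 69 and AC in 17. The median GC content of the summit windows was 51.5% in members (SD 7.12) and 50.5% in peaks with fewer tags, and the medians of the side windows were 44.6% and 41.6%.

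Members of high and of low fold were spread differently over the sequence groups. Of the 1054 members with a fold under 10, 378 (35.9%) were in the 5 groups rich in members and 123 (11.7%) in groups 1 to 3. Of the 181 with a fold of at least 20, 1 was in the 5 groups and 121 (66.9%) in groups 1 to 3. Words shared with PNST peaks were found in 37.5% of the former and 67.4% of the latter, and tandem repeats in 0.66% and 14.9%. Since fold and tags come from the same call that chose the members, these shares are descriptions.

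The 10 members with the most tags were 544 to 1623 bp long with folds of 2.73 to 8.07, and 5 of them were in local clusters. The highest count, 204 tags at a fold of 3.46, was at chr8:126146540-126148162, in an intron of a protein-coding gene and 31289 bp from Rhou, and its window printed above holds a run of the unit ATCC on the opposite strand. The next, 187 tags at a fold of 3.8, was at chr8:19775788-19777354 near 4930467E23Rik. Peaks near Speer8-ps1 and Speer7-ps1, pseudogenes of a testis-expressed gene family, held 148 tags each at folds of 4.58 and 3.57. Peaks near Gm15319 held 125 and 113 tags, another peak near 4930467E23Rik held 114, and peaks near Rn4.5s, Mgmt and Gm7609 held 120, 119 and 105. Mgmt encodes a DNA repair methyltransferase, and its peak had the highest fold of these 10, at 8.07. None of the 10 was mostly single-copy.

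Local clusters were few but rich. Members lay in 1105 bins of 1 Mb, and 634 of these bins held 1 member. Only 5 bins held 10 or more, with 82 members among 125 limb-only distal peaks (65.6%, against 12.7% over all). The bin chr8:19000001-20000000, which includes beta-defensin genes, held 19 members of 30 peaks, with 18 each in the adjoining bins chr4:145000001-146000000 and chr4:146000001-147000000 beside predicted genes and the zinc finger genes Rex2 and Zfp600. The bin chr4:60000001-61000000, in the major urinary protein cluster, held 16 members of 27 peaks, and chr5:15000001-16000000, with Speer genes, held 11 of 15. Summit words of the members in these bins had medians of 4 to 12 copies, far fewer than the 424.5 over all members. Since the header of the limb list names no control file, tags were not set against the number of copies that FVB/N mice carry at these loci, and its part in the counts was not tested.

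Most nearest genes had a single member beside them. The 1970 members had 1501 different nearest genes, of which 1187 had 1 member and 28 had 4 or more. 4930467E23Rik and 6820431F20Rik were nearest to 9 members each, with 25 to 187 and 19 to 89 tags. Zfp868, a zinc finger gene, was nearest to 7 members with 32 to 79 tags. Each limb-only distal peak nearest to these 3 genes was a member. Slain1, which encodes a microtubule-associated protein, and 1700001F09Rik were nearest to 5 each, with 17 to 21 tags for both, and were named from 7 genes with 5 members because their highest folds were the largest, 22.3 and 22.1.

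The 13 members in mostly single-copy sequence had 17 to 43 tags and folds of 5.47 to 58.1. The highest fold of all members was at chr4:138762754-138762919, with 25 tags and a fold of 58.1, in an intron and 13813 bp from the listed start of Capzb, which encodes a subunit of the actin capping protein. All its words were unique, and its E-box, CACCTG, was centred 47.5 bp from the summit. The peak 9239 bp from P4ha2, a collagen prolyl hydroxylase gene, had 39 tags and a fold of 41.1 but no E-box in the window. The peak 49020 bp from Polr3k, which encodes an RNA polymerase III subunit, had 41 tags and a fold of 21.6. Those beside Csf2ra (a cytokine receptor gene), Nsfl1c and Pisd (a phospholipid synthesis gene) had 21, 19 and 23 tags at folds of 26.04, 14.5 and 7.76. Of the 13, 6 had an E-box within 50 bp of the summit (46.2%) and 2 shared a word with a PNST peak. The member 29349 bp from Cdh5, the vascular endothelial cadherin gene, had 20 tags and a fold of 6.26.

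Members lay between genes more often than the peaks with fewer tags. The summit was in an intron of a protein-coding transcript in 578 members (29.3%, 27.4 to 31.4%), in an exon in 7 and between genes in 1385 (70.3%). The intron share was 34.6% in the peaks with fewer tags, a difference of -5.28 points for members (interval -7.41 to -3.08). The distance to the nearer listed gene had a median of 17668 bp in members and 17467.5 bp in the others.

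The nearest gene of 1377 members (69.9%, 67.8 to 71.9%) had an ECC or PNST peak elsewhere within 50 kb, against 61.8% for peaks with fewer tags, a difference of 8.07 points (interval 5.86 to 10.2). Taken by list, the nearest gene had an ECC peak for 60.1% of members and 48.8% of the others (difference 11.3, interval 8.92 to 13.6), and a PNST peak for 36.1% of both (difference 0.055, interval -2.19 to 2.35). These ECC and PNST peaks could lie close to the member. In 1708 members no ECC or PNST peak lay within 1 kb, and 65.3% of these were beside such a gene. The share in peaks with fewer tags was not recomputed in this way.

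Genes of limb development and Wnt signaling had members near them at a share not told apart from that of all limb-only distal peaks. Within 50 kb of limb patterning genes there were 66 limb-only distal peaks, of which 6 were members (9.09%, 4.23 to 18.4%), against 12.7% over all limb-only distal peaks. The members lay beside Tbx5, Gli3, Fgf8, Fgf9, Tbx18 and Spry4, while 28 further genes of the list had limb-only distal peaks with fewer tags only. The peak at chr5:120344757-120345070, 11263 bp from Tbx5, the T-box gene of forelimb initiation, had 33 tags, a fold of 13.9 and no E-box in its window, in which a unit of 30 bp recurs with 97.2% identity. The peak 30514 bp from Gli3, a transcription factor of the hedgehog pathway, had 32 tags at a fold of 5.5 and belonged to group 10. The peak 29114 bp from Fgf8, a ligand of the apical ectodermal ridge, had 22 tags at a fold of 8.33 and belonged to group 1. Of the 6 members, 2 had an E-box in the window and 1 had a summit word with under 10 copies.

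Wnt pathway genes had 77 limb-only distal peaks within 50 kb, of which 7 were members (9.09%, 4.47 to 17.6%), beside Tcf7l2, Dab2ip, Fzd8, Fzd1 and Lef1. Tcf7l2 and Lef1 encode transcription factors at the end of the pathway, and Fzd8 and Fzd1 encode receptors. The Tcf7l2 member with the most tags, 34 at a fold of 7.44, and the Dab2ip member, 28 at a fold of 8.01, both belonged to group 8. The Tcf7l2 member in an intron, at chr19:55845325-55845552, had 21 tags and a fold of 19.8, and its window holds CACATG in each of 2 copies of a unit of 48 bp that recurs with 96.2% identity. Of the 7, 1 had an E-box in the window.

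The other lists had shares near or below that of all limb-only distal peaks. Cell adhesion genes had 24 members of 262 peaks (9.16%), led by peaks near the cadherin genes Cdh7 with 42 tags and Dsg2 with 39, and the protocadherin gene Pcdh8 with 34. Guidance genes had 14 of 111 (12.6%), led by the ephrin receptor gene Epha6 with 25 tags and the netrin receptor gene Unc5d with 25 and 20, all 3 with an E-box and in groups 2 and 3. Cartilage and matrix genes had 4 of 73 (5.48%), beside the collagen genes Col28a1 with 23 tags and Col10a1 with 18, Postn (periostin) with 18, and Chst11. Genes of bHLH partners, transition factors and retinoid X receptors had 4 of 46 (8.70%). These were a peak with 30 tags nearest to Lmx1a and within 50 kb of Rxrg, peaks with 21 tags beside Snai2 and beside Zeb1, and a peak beside Id4. Olfactory receptor genes had 58 of 517 (11.2%), led by a peak with 42 tags near Olfr1008 that belonged to group 8. The Wilson interval of every list included 12.7%.

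**Figure D5:**
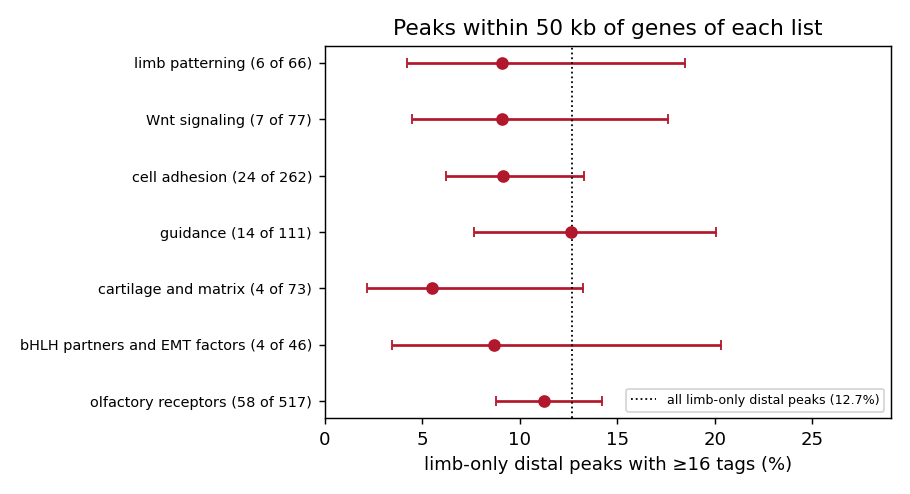
Percent of limb-only distal peaks within 50 kb of the genes of each list that had at least 16 tags (x axis, with Wilson 95% intervals covering counting error only). The dotted line marks 12.7%, the share over all limb-only distal peaks, and lies within every interval; shares run from 5.48% for cartilage and matrix genes to 12.6% for guidance genes.

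The study tested limb regions by ChIP-qPCR, and 6 genes with a tested region further than 5 kb away that was not shared with another tissue were examined. The study describes the tested regions as holding an E-box. Peaks were taken here by gene, and whether any of them was the tested region was not examined. Of the 6 genes, Lef1 had a member within 50 kb. It lay at chr3:130913332-130913576 in an intron, 5449 bp from the listed start, with 17 tags, a fold of 12.1, no E-box in the window and a summit word with 3713 copies, in group 5. Limb-only distal peaks within 50 kb of Fzd3 held 15 and 9 tags, those of Nlk 8 to 10, those of Mcc 8 and 9, and that of Csnk1e 10, all under the threshold. Tmem18 had 1 limb peak within 50 kb in the deposited list, but it was not a limb-only distal peak. All 4 peaks of Nlk, a kinase that acts on Wnt transcription factors, had an E-box in the window, as had the peak of Csnk1e. No limb-only distal peak of Fzd3, Lef1 or Mcc had an E-box in the window.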

How the data were processed

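Twist1 ChIP-seq was analysed in 1 pooled sample per tissue. The authors mapped 50-bp reads to the mouse genome (mm9; Bowtie is named in the submitters' processing notes) and called peaks per tissue in MACS 1.4.2, with a threshold on the p-value of 1e-05, keeping 1 tag per position. Per the file headers no control file was given, whereas the study's methods name FVB/N genomic DNA as control. How reads with several matches were placed is not given in the sources used here. The deposited limb list is longer and its library deeper than the study describes.

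Each deposited row gives a tag count, a fold (ratio) over local background, and a p-value score (-10 times its log10). The deposited values were used unchanged. Sequences came from the NCBIM37 (mm9) genome, and introns from protein-coding GENCODE vM1 transcripts. Summit windows of 101 bp were scanned for motifs, and words of 32 bp were counted over the genome on both strands. Peaks sharing a word were joined into groups, also in chains through other peaks. With 1 sample per tissue no test over samples exists. Shares have Wilson 95% intervals and differences Newcombe 95% intervals, which cover counting error over peaks of 1 library. Neighbouring and repeated peaks are not independent, so these intervals are too narrow. Python 3.11.15, numpy 2.4.6 and pandas 2.3.3 were used, and the scripts were tested on simulated data.

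Peaks named are the 10 members with most tags, the 5 of highest fold in mostly single-copy sequence with an E-box, 3 per gene list, the 5 genes nearest to most members, and 6 genes with limb regions tested by ChIP-qPCR, ties going to the higher fold. Other peaks named, including those with a pair of E-boxes, were chosen after their values were seen. No sequence of chromosome 18 was printed. The members and lists were chosen with earlier results of these data known. Alternatives changed the tag, p-value, fold, overlap, distance and motif settings.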

Additional observations from a re-analysis of the deposited data

How the results depend on the processing

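Depth limits what limb-only means here, since 1450 members had fewer tags than scale to the smallest ECC peak. Each tissue had 1 sample, so leaving out a replicate was not run. No paired analysis was possible because each tissue has 1 library and no replicate number.

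The median GC content was 51.1 to 52.5% under the 12 alternatives, against a main value of 51.5%. All 12 were within 1 SD over peaks (7.12), a wide margin that the 50.5% of peaks with fewer tags would also pass. Alternatives for shared words and for the 5 sequence groups, and the one without crowded bins, were added after seeing the data. Values outside the main 95% interval, or counts beyond 1.5 times, follow by setting; the cause was not tested.

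With a p-value of 1e-10 or smaller there were 723 members, 8.02% with a tandem repeat, 32.5% in introns, 62.8% beside a gene with another ECC or PNST peak, 50.2% sharing a PNST word and 3.32% in the 5 groups. With at least 12 tags there were 4375 members, 66.2% beside such a gene, 86.4% sharing an ECC word, 54.2% a PNST word and 11.5% in the 5 groups. With at least 20 tags these values were 983, 72.3%, 76.5%, 36.5% and 26.04%. With at least 24 tags they were 520, 73.3%, 72.5%, 32.5% and 28.3%, with 36.2% holding an E-box and 1.15% mostly single-copy. With a fold of at least 20 there were 181 members, 31.5% with an E-box, 14.9% with a tandem repeat, 2.76% mostly single-copy, 32.6% in introns, 55.8% beside such a gene, 84.0% sharing an ECC word, 67.4% a PNST word and 0.55% in the 5 groups. The 13 mostly single-copy members had an E-box in 46.2%, a tandem repeat in 7.69%, an intron in 7.69%, such a gene in 84.6%, an ECC word in 30.8%, a PNST word in 15.4% and none in the 5 groups (0%). Beyond 10 kb, 24.3% were in introns. Counting peaks with an ECC or PNST peak within 1 kb as shared, 65.3% were beside such a gene. Counting members within 10 kb of each other once gave an ECC word in 83.3%, and leaving out bins of 10 or more members gave 83.4%. An E-box was anywhere in the peak in 70.2% and within 25 bp in 22.4%. A tandem repeat of 12 bp or more was in 8.68%, every word was unique in 0.10%, and 73.6% had such a gene on either side.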
